A study of Mus musculus with 8 samples.

Results

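The TRIM (tripartite motif) family was described across mouse embryonic fibroblasts (MEFs) that carried different forms of the DNA-sensing adaptor STING. Its members were all genes whose symbol starts with Trim and a digit and that had a probe set assigned to that symbol alone, with the brightest probe set kept for each symbol. There were 64 such members, from 69 probe sets, among 22180 named genes on the array. For each member the question was whether its signal followed the interferon-stimulated genes or stayed flat.

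TRIM proteins share a RING finger, B-box and coiled-coil arrangement, and most act as ubiquitin ligases whose carboxy-terminal domain chooses the target. Some restrict incoming retroviruses or adjust the signalling of nucleic acid sensors, and others act in transcription, muscle or neurons. Part of the family is itself induced by type I interferon, through the interferon-stimulated response element (ISRE) in their promoters, so a fibroblast that senses DNA through cGAS and STING can raise its own TRIM ligases.

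The cells were STING-/- MEFs, labelled as primary, in which N154S (a mutant of the inflammatory disease SAVI), R284S, hSTING or the empty pBabe vector had been put back. Each of the 4 lines had 1 array of cells given double-stranded DNA (dsDNA) with Lipofectamine 2000 for 9 h and 1 array of control cells. All cells therefore lacked the endogenous gene, and the vector cells had nothing in its place. The labels do not say whether control cells received the transfection reagent, nor whether a line came from 1 clone. No array was replicated, so a difference of 2 arrays has no replicate check.

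Values are log2 array signals, and the median signal of the named genes lay between 4.42 and 4.47 on the 8 arrays. A signal below that median is called dim and is not read as absence. All 12 fibroblast markers written for the check were at or above it on every array, with gene medians of 7.33 to 12.69, while 0 of 4 endothelial and 0 of 3 epithelial markers and 1 of 6 leukocyte (Cd14), 1 of 4 skeletal muscle (Des) and 1 of 3 neuronal markers (Rbfox3) were. The summed log2 signal of the fibroblast markers was lowest in R284S cells with dsDNA (113.07) and highest in vector control cells (124.2), and the part of this shift in the TRIM differences was not tested. The Sting1 probe set read 3.68 to 4.22, dim on all arrays, so it does not check which line carries which construct. In bulk RNA, fewer cells of a kind and less RNA per cell cannot be told apart.

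The 64 members fell into 5 classes by rules on control cells and brightness. A member followed the interferon pattern in full if it was 2-fold or more higher than the vector cells in the control cells of all 3 STING lines, and in part if in 1 or 2 of them, with the brighter array at or above its median. In full were 5 members (7.81%), namely Trim25, Trim21, Trim12a, Trim30d and Trim34a, against 0.374% of all named genes. In part were Trim14 and Trim30a, 2 members, against 1.08% of all genes. Flat members had a mean at or above the median and moved by less than 0.5 on the log2 scale in each control comparison with the vector and in each comparison of dsDNA with control within a line. These were 17 members (26.6%), against 33.2% of all genes. A further 30 members (46.9%) were dim, against 49.9%, and the remaining 10 were intermediate, against 15.4%.

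A panel of known interferon-stimulated genes without TRIM symbols gave the pattern to compare with. Of its 35 measured genes, 30 followed the pattern in full, 4 in part, 1 was dim and 0 were flat. The panel's median signal with dsDNA was 9.47 in N154S, 8.32 in R284S, 9.63 in hSTING and 6.22 in vector cells. In control cells it was 8.78 in N154S, 8.27 in R284S, 7.80 in hSTING and 4.90 in vector cells. The median of the 5 TRIM members in full was 8.30, 7.06, 7.91 and 5.67 with dsDNA and 7.85, 7.26, 6.6 and 5.22 in control cells of N154S, R284S, hSTING and vector. In control cells this is the panel's order of lines, where the lowest place of the vector follows from the rule that chose these members. With dsDNA the orders differed, since the panel was highest in hSTING and the TRIM members in N154S. The median of the 17 flat members lay between 5.75 (hSTING cells with dsDNA) and 6.20 (vector cells with dsDNA) over the 8 arrays.

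**Figure D1:**
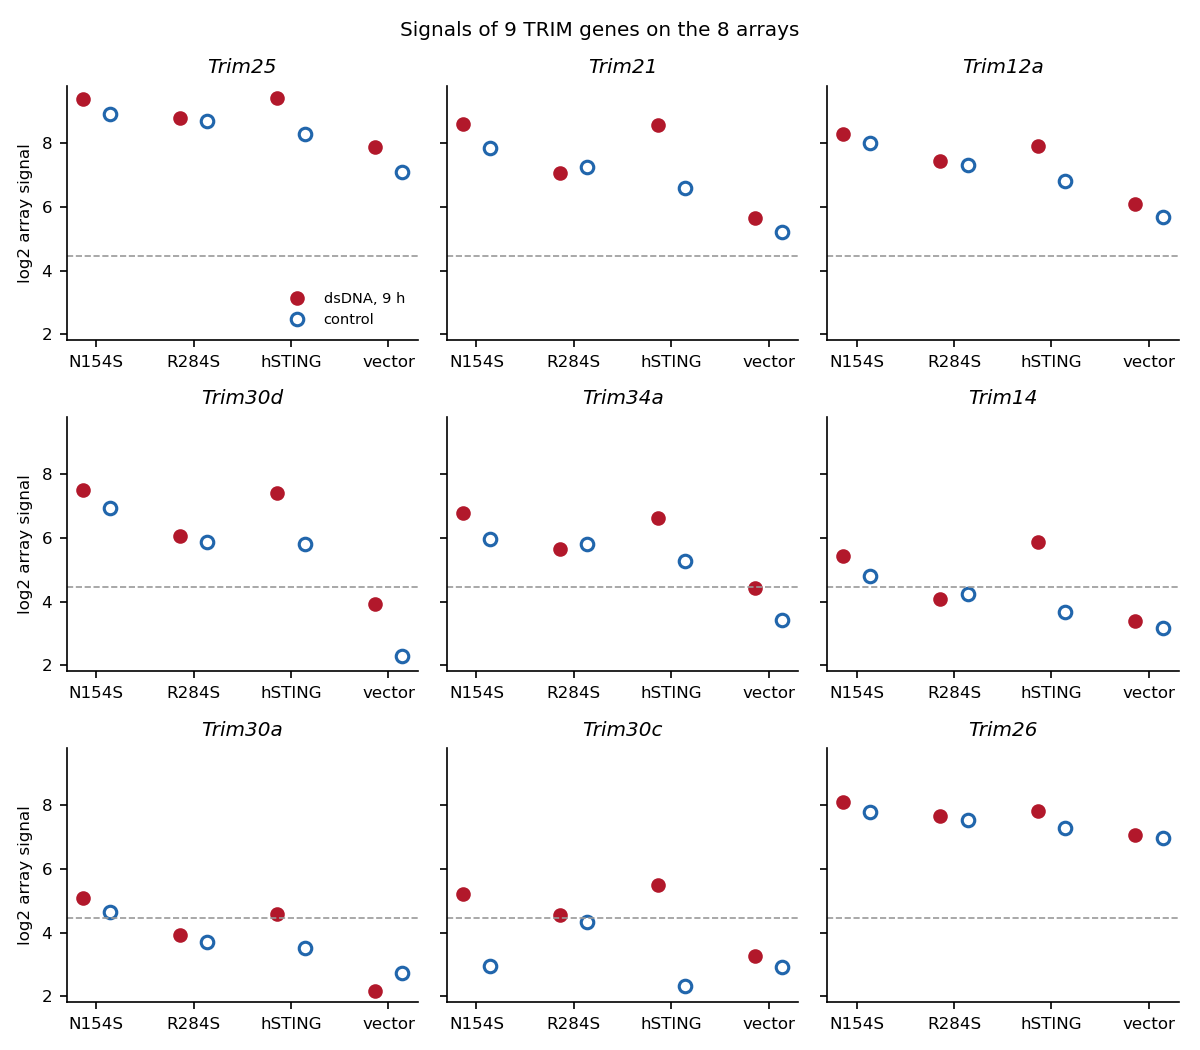
Log2 array signal (vertical axis) of the 7 pattern members, Trim30c and Trim26 on the 8 arrays, by line, with filled points for dsDNA, open points for control cells and a dashed line at the median of named genes. Both vector arrays are the lowest for Trim25, Trim21, Trim12a, Trim30d, Trim34a, Trim14, Trim30a and Trim26, and Trim30c is above the line with dsDNA in the 3 STING lines.

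Promoter windows from RefSeq (build GRCm38.p6), from 250 bases before the start site to 50 bases after it, were given for 49 of the members. They were searched on both strands for GAAA, any 2 bases and GAAA again, the core of the ISRE. The windows of the 5 members that follow the pattern in full, and 1 of the 2 given for Trim30a, are shown because they carry this match or, for Trim25, lack it. Each reads 5′ to 3′ on the gene's strand, and capitals mark the matched letters.
Trim21, chr7:102565433-102565732, minus strand: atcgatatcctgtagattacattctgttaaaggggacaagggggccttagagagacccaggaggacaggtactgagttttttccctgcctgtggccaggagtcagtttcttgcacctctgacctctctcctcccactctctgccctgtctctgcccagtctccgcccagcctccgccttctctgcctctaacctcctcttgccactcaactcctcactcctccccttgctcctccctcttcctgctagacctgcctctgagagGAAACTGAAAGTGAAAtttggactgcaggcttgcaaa
Trim34a, chr7:104244207-104244506, plus strand: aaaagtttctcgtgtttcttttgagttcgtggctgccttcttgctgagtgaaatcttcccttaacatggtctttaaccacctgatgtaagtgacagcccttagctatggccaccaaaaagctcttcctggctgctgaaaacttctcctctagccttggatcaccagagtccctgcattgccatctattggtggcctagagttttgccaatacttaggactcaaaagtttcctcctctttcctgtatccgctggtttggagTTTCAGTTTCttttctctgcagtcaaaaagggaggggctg
Trim12a, chr7:104315446-104315745, minus strand: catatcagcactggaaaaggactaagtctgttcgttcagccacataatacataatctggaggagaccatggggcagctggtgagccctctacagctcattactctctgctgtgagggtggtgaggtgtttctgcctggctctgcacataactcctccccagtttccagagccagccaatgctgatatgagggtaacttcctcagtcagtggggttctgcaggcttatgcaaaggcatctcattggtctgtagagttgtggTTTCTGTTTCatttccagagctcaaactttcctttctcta
Trim30d, chr7:104507800-104508099, minus strand: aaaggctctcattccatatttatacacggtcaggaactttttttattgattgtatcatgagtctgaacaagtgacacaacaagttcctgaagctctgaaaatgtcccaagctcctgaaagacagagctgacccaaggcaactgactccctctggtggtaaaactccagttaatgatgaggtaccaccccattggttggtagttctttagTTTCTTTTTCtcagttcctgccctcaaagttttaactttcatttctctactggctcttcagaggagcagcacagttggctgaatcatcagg
Trim30a, chr7:104465144-104465443, minus strand: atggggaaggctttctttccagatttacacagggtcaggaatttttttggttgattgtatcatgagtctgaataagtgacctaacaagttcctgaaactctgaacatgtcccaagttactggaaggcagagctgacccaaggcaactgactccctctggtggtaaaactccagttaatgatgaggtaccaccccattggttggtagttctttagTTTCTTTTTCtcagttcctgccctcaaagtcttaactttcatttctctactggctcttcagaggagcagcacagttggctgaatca
Trim25, chr11:88999153-88999452, plus strand: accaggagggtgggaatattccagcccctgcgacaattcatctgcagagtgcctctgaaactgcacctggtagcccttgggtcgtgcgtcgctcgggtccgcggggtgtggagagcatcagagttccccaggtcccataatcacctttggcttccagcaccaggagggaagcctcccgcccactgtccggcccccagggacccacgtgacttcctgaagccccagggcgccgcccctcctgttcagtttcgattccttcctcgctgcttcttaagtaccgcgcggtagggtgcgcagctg

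The match was present in 4 of the 5 full members and in Trim30a, the 1 member of the partial class with a window. It was present in 1 of 13 flat members (Trim2), 1 of 22 dim members (Trim12c) and 1 of 8 intermediate members (Trim26). Over all members the share was 16.3%, against 3.99% of 27025 genes with a window. Counted from 0 at the start-site base, the Trim34a and Trim12a matches both lie at 10 to 19, and the 2 overlapping matches of Trim21 lie at 13 to 22 and 19 to 28. The Trim30d match lies upstream, at -41 to -32, and that of the Trim30a window shown at -36 to -27, in windows that are 90.8% identical. Dim Trim12c carries the letters of the Trim12a match at -29 to -20, and these 2 windows are 72.6% identical. A match is a string of letters and not a shown site, and the Trim25 window says only that these letters are not in it. The other motif searched, TTCNNNGAA (the GAS-like element, N being any base), was in 0 of the 5 full members, in 12.2% of members and in 9.55% of all genes.

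The TRIM relatives of primate TRIM5, the retroviral capsid sensor, form a run on mouse chromosome 7 that has expanded in rodents. In the order of assembly GRCm38.p6 the run holds Trim6, Trim34a, Trim5, Trim12a, Trim34b, Trim12c, Trim30b, Trim30c, Trim30a, Trim30d and Trim30e-ps1 within 21 genes. Of its 9 members here, 4 followed the pattern (all genes: 0.374% in full, 1.08% in part), 5 were dim (49.9%) and 0 flat (33.2%). Trim21 lies on the same chromosome, 130 genes away from Trim6, so 5 of the 7 pattern members are on chromosome 7, as are 15 of all 64 members. Trim5 and Trim34b had only probe sets shared with a neighbour and are not members. Over the 8 measured genes listed for this group the median control difference from vector was 1.58 in N154S, 1.18 in R284S and 0.845 in hSTING. Each of these medians lies between genes whose vector arrays were dim, so it is not read as a size for the group. Neighbouring copies of this run are alike in sequence, and the array's probes may read more than 1 of them.

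Trim12a, a mouse relative of TRIM5, was the brightest gene of the run. With dsDNA it read 8.30 in N154S, 7.46 in R284S, 7.91 in hSTING and 6.09 in vector cells. In control cells it read 8.0, 7.33, 6.82 and 5.70 in the same lines. Both vector arrays lay below the other 6, and the control cells of N154S were 4.92-fold, of R284S 3.10-fold and of hSTING 2.17-fold above vector cells.

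Trim30d is a paralogue of Trim30a and, as measured down to a dim vector array, had the widest range of the 64 members. With dsDNA it read 7.52 in N154S, 6.05 in R284S, 7.41 in hSTING and 3.93 in vector cells, and in control cells 6.93, 5.89, 5.81 and 2.30. Both vector arrays were dim, so only bounds are given. Control cells of N154S were at least 5.58-fold, of R284S at least 2.71-fold and of hSTING at least 2.57-fold above vector cells.

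Trim34a belongs to the TRIM5-like genes. It read 6.78 in N154S, 5.64 in R284S, 6.64 in hSTING and 4.43 in vector cells with dsDNA. In their controls it read 5.98, 5.81, 5.28 and 3.41. The STING lines did not overlap with the vector cells, and control N154S was at least 2.89-fold, R284S at least 2.57-fold and hSTING at least 1.78-fold above vector. A second Trim34a probe set was dim on all arrays (1.94 to 2.54), and with the mean of both in place of the brighter one Trim34a left the pattern.

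Trim30a, in mice a brake on Toll-like receptor signalling that acts on TAB proteins, was close to the median. Its signal with dsDNA was 5.10 in N154S, 3.92 in R284S, 4.57 in hSTING and 2.17 in vector cells, and in control cells it was 4.66, 3.69, 3.52 and 2.74. The vector arrays were again the lowest pair. In control cells it was bright only in N154S, at least 1.16-fold above vector, with measured log2 differences of 1.92 for N154S and 0.95 for R284S, the last just outside the 2-fold limit.

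Of the dim genes of the run, Trim30c stood out by its dsDNA arrays. It read 5.20 in N154S, 4.54 in R284S, 5.51 in hSTING and 3.27 in vector cells with dsDNA, against 2.96, 4.32, 2.33 and 2.91 in control cells of the same lines. It was above the median with dsDNA in the 3 STING lines and dim in all control cells. Its R284S control array was 1.41 above vector on the log2 scale but dim, so this difference did not count. With no counted difference and a mean of 3.88, below the median, Trim30c was classed as dim. Trim12c read 4.13 in N154S, 3.79 in R284S, 3.79 in hSTING and 2.88 in vector control cells, lowest in vector but dim in all. Trim6 (3.27 to 3.83) and Trim30b (2.28 to 3.08) were dim on every array.

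The second group by role holds ligases that act on nucleic acid sensing or interferon signalling, with 15 of the 16 genes written measured. Of these, 2 followed the pattern in full (0.374% of all genes), 1 in part (1.08%), 6 were flat (33.2%), 3 dim (49.9%) and 3 intermediate (15.4%). Their median control difference from vector was 0.27 in N154S, 0.32 in R284S and 0.01 in hSTING cells.

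Trim25, which ubiquitinates the RNA sensor RIG-I and also serves as a ligase for ISG15, was the brightest pattern member. Cells with dsDNA read 9.40 in N154S, 8.80 in R284S, 9.44 in hSTING and 7.90 in vector. Control cells read 8.91, 8.71, 8.30 and 7.09. Its highest vector array lay below its lowest STING-line array, and control N154S was 3.53-fold, R284S 3.07-fold and hSTING 2.31-fold above vector.

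Trim21, the cytosolic receptor that marks antibody-coated virus for degradation, differed more. It read 8.61 in N154S, 7.06 in R284S, 8.59 in hSTING and 5.67 in vector cells with dsDNA, and 7.85, 7.26, 6.6 and 5.22 in control cells. The STING lines and the vector cells did not overlap. Control N154S was 6.19-fold, R284S 4.11-fold and hSTING 2.60-fold above vector.

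Trim14 lacks a RING finger and works as an adaptor of mitochondrial MAVS signalling. Its signal with dsDNA was 5.43 in N154S, 4.07 in R284S, 5.87 in hSTING and 3.39 in vector cells, and in control cells it was 4.81, 4.24, 3.67 and 3.18. In control cells only N154S was above the median, at least 1.28-fold above vector. The R284S control array was 1.06 above vector on the log2 scale, just inside the 2-fold limit, but dim.

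Trim26 and Trim56 were intermediate. Trim26, a ligase reported to act on IRF3, read 8.12 in N154S, 7.66 in R284S, 7.82 in hSTING and 7.06 in vector cells with dsDNA, and 7.80, 7.55, 7.30 and 6.97 in control cells. It had the same order of lines as Trim12a at a smaller size, with control N154S 1.78-fold above vector. Trim56, a ligase reported to modify STING and cGAS, read 6.94, 6.79, 6.91 and 6.18 with dsDNA and 6.51, 6.75, 6.23 and 6.21 in control cells. Trim32, also reported to modify STING, read 6.25, 6.6, 5.91 and 6.28 with dsDNA and 6.58, 6.65, 6.52 and 6.13 in control cells, without that order.

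The other genes of the sensing group were flat or dim. Flat were Trim8, Trim27, Trim11, Trim23, Trim68 and Trim13, and dim were Trim29, Trim31 and Trim38. Trim8, which acts in NF-kB signalling, read 8.20 in N154S, 8.07 in R284S, 8.07 in hSTING and 7.87 in vector cells with dsDNA, against 8.27, 8.13, 7.89 and 7.88 in their controls. Its vector arrays were the lowest, but by 0.01 on the log2 scale. Trim27 read 7.47, 7.22, 7.68 and 7.33 with dsDNA and 7.50, 7.47, 7.70 and 7.61 in control cells. Trim11 read 6.66, 6.71, 6.27 and 6.62 with dsDNA and 6.71, 6.97, 6.44 and 6.5 in control cells, without the order of the interferon panel.

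Outside these groups 0 of 41 members followed the pattern, where all genes gave 0.374% in full and 1.08% in part, so a count of 0 is near that background. Among the 4 chromatin corepressors, Trim28 and Trim33 were flat, Trim24 intermediate and Trim66 dim. Trim28, the corepressor recruited by KRAB zinc finger proteins and the brightest member, read 8.83 in N154S, 9.00 in R284S, 8.79 in hSTING and 9.03 in vector cells with dsDNA, against 8.97, 9.09, 9.24 and 9.13 in their controls. Its lowest arrays were N154S and hSTING with dsDNA. Of the muscle ligases Trim54 was flat and Trim55, Trim63 and Trim72 were dim. Of the 7 neuronal, NHL or COS box members, Trim2 and Trim46 were flat, Trim3 and Trim71 intermediate and Trim9, Trim36 and Trim67 dim.

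Of the other 26 members 6 were flat, 4 intermediate and 16 dim. Trim44, which has no RING finger, read 7.67 in N154S, 7.75 in R284S, 7.74 in hSTING and 7.84 in vector cells with dsDNA, against 7.75, 7.85, 7.82 and 7.66 in their controls, a range of 0.19. Trim37, a ligase of centrosomes and peroxisomes, read 6.97, 6.74, 6.83 and 7.16 with dsDNA and 6.78, 6.72, 6.71 and 7.03 in control cells. Both were flat, and for Trim37 the vector arrays were the highest rather than the lowest. Over the 17 flat members the control difference from vector ran from -0.25 to 0.39 in N154S, from -0.31 to 0.47 in R284S and from -0.45 to 0.16 in hSTING cells.

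**Figure D2:**
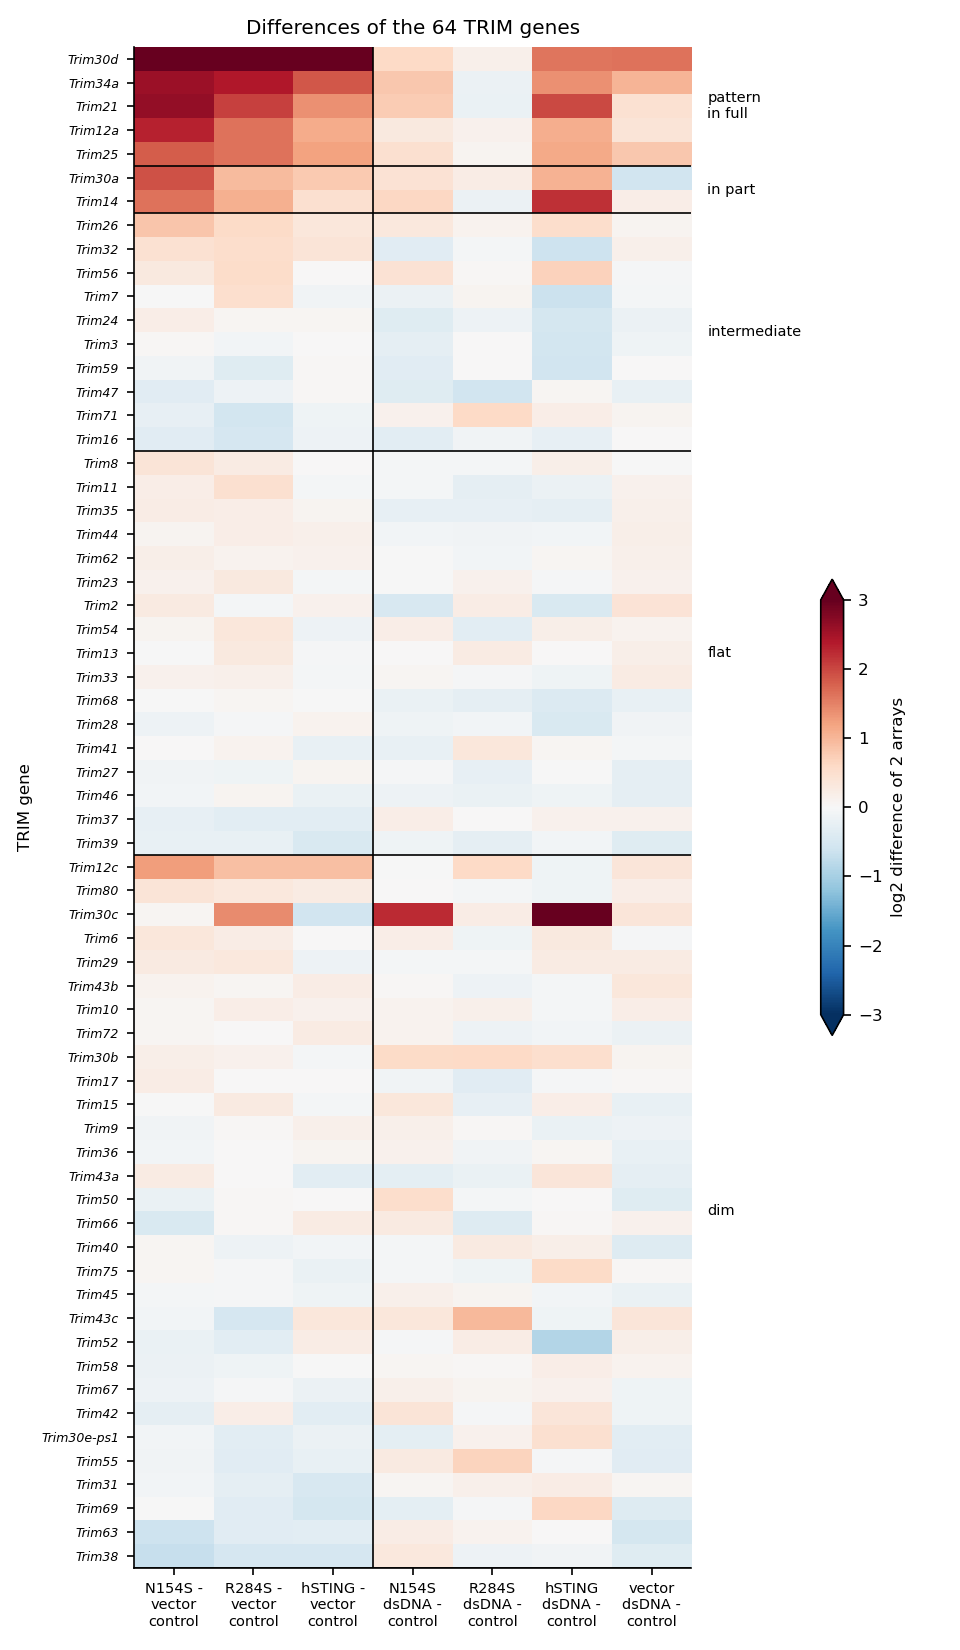
Log2 differences of 2 arrays (colour) for the 64 members (rows, grouped by class) in 7 comparisons (columns), control cells of each STING line minus vector on the left and dsDNA minus control of each line on the right. The pattern members are red on the left, while the 17 flat members lie between -0.45 and 0.47 there. Both follow largely from the rules that set the classes.

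Across the whole family in control cells, 7 members were 2-fold or more higher in N154S than in vector cells, against 1.01% of all genes. In R284S there were 5, against 1.15%, and in hSTING 5, against 0.415%. None was 2-fold lower in N154S, R284S or hSTING (0 of 64 each), where all genes gave 0.406%, 0.721% and 0.018%. The median TRIM difference was 0.05 in N154S, 0.07 in R284S and 0.01 in hSTING, against 0.00, 0.00 and -0.01 for all genes and 3.52, 3.03 and 2.60 for the interferon panel. So the median member, as measured, did not move with the panel, but 30 of the 64 members were dim and are not read as flat. In 12 of the 64 members (18.8%) both vector arrays lay below all 6 STING-line arrays, against 5.71% of all genes. Besides the 7 pattern members these were Trim12c, Trim26, Trim56, Trim6 and Trim8. Trim12c and Trim6 were dim on every array. For Trim6, Trim56 and Trim8 the margin was slight. Their highest vector arrays read 3.31, 6.21 and 7.88, and their lowest STING-line arrays 3.32, 6.23 and 7.89.

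The fit over all 8 arrays, with line and treatment as additive terms, tested the lines over both treatments. Its residual holds any unevenness of the dsDNA effect between lines, and its p-values measure only the spread among these single arrays. By limma with Benjamini-Hochberg adjustment over all genes, 7 members were higher in N154S than in vector cells, against 0.708% of all genes, and 0 were lower, against 0.609%. For R284S 3 were higher, against 1.02%, and for hSTING 1 was, against 0.0992%, with 0 lower for both. At an unadjusted limma p under 0.05 the counts were 15, 15 and 12 of 64 members for N154S, R284S and hSTING. Of these, 13, 13 and 9 were higher. The shares of all genes, in either direction, were 14.9%, 14.3% and 9.28%. The comparisons share the vector arrays.

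Trim30d was called in all 3 lines, with log2 differences of 4.11 in N154S (limma adjusted p = 0.00629), 2.85 in R284S (adjusted p = 0.0144) and 3.495 in hSTING (adjusted p = 0.0305), each with SE 0.36. Because its vector arrays were dim, these amount to at least 2.79, 1.53 and 2.17 against the median. Trim12a was called in N154S (2.25, SE 0.23, limma adjusted p = 0.00935) and R284S (1.5, adjusted p = 0.0240), but in hSTING its difference of 1.47 had a limma adjusted p of 0.107. Trim34a was called in N154S (2.46, SE 0.32, limma adjusted p = 0.0220, at least 1.94) and R284S (1.80, adjusted p = 0.0447, at least 1.28).

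The other calls were in N154S only. Trim21 was 2.79 higher (SE 0.44, limma adjusted p = 0.0366), Trim25 1.66 higher (SE 0.24, adjusted p = 0.0283) and Trim26 0.945 higher (SE 0.15, adjusted p = 0.0351). Trim30a was 2.42 higher in N154S (SE 0.33, limma adjusted p = 0.0245), at least 0.445 against the median. In R284S, Trim25 was 1.26 higher with a limma adjusted p of 0.0509, just outside the threshold. Trim14 was not called, at 1.84 higher in N154S (SE 0.49, limma adjusted p = 0.154). A call in N154S and none in another line does not show that the lines differ. The counts of calls leaned on single lines, since with the N154S arrays left out R284S and hSTING each had 0, with the hSTING arrays left out R284S had 6, and with the R284S arrays left out hSTING had 2. With trended robust variances Trim21 lost its N154S call (limma adjusted p = 0.124) and Trim30d its hSTING call (limma adjusted p = 0.0853). Trim26 lost its N154S call with the R284S arrays left out (limma adjusted p = 0.0611).

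Differences between the STING lines were tested in the same fit, and limma called 0 of 64 members in N154S against hSTING, in R284S against hSTING and in R284S against N154S. At an unadjusted limma p under 0.05 there were 7, 8 and 8 members of 64, against 8.9%, 13.7% and 7.07% of all genes. After adjustment all genes were called at 0.0% higher and 0.0% lower, 0.509% and 0.442%, and 0.00451% and 0.00451% in these 3 comparisons. The smallest limma adjusted p among the members was 0.0776, for Trim7, a ligase that binds glycogenin. Trim7 read 5.29 in N154S, 6.08 in R284S, 4.75 in hSTING and 5.42 in vector cells with dsDNA, against 5.47, 5.99, 5.39 and 5.49 in their controls. It was highest in both R284S arrays, and with dsDNA it was 1.33 higher in R284S than in hSTING on the log2 scale.

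As single arrays, control N154S and hSTING cells differed by 2-fold in 5 members, all higher in N154S, against 0.532% of all genes. These were Trim21 by 1.25, Trim12a by 1.18, Trim30d by 1.12, and Trim14 and Trim30a by 1.14 each. For Trim14 and Trim30a the hSTING array was dim, so these amount to at least 0.36 and 0.21 against the median. Control R284S against hSTING gave 0 higher, against 0.703%, and 0 lower, against 0.482%. Control R284S against N154S gave 1 lower, Trim30d by -1.04, against 0.302%. The panel medians for these comparisons were 0.98, 0.22 and -0.62, and the TRIM medians 0.11, 0.085 and -0.04.

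Of the 3 STING lines, hSTING was the lowest for all 7 pattern members in control cells, and R284S was the lowest for all 7 with dsDNA. With dsDNA, R284S was 2-fold or more below hSTING in 4 members, against 1.74% of all genes, namely Trim14 (-1.80), Trim21 (-1.53), Trim30d (-1.36) and Trim34a (-1.0), the last at the limit. Only Trim7 was higher, 1 member against 0.956%. R284S was below N154S in 5 members, against 0.6%, namely Trim21 (-1.55), Trim30d (-1.47), Trim14 (-1.36), Trim30a (-1.18) and Trim34a (-1.14). R284S was dim for Trim14 and Trim30a, so against the median Trim14 was lower by at least 1.41 than in hSTING and 0.97 than in N154S, and Trim30a by at least 0.64 than in N154S. N154S and hSTING with dsDNA differed by 2-fold in 0 members, where 0.176% of all genes were higher and 0.559% lower.

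Set against vector cells with dsDNA, N154S cells had 9 members 2-fold or more higher, against 1.57% of all genes, R284S cells 5, against 1.13%, and hSTING cells 8, against 2.16%. Trim12a, Trim21, Trim30d, Trim34a and Trim30c were counted in all 3 lines. For Trim30d, Trim30c, Trim14 and Trim30a the vector array was dim. Against the median Trim30c was higher by at least 0.78 in N154S, 0.12 in R284S and 1.09 in hSTING. Trim30d was higher by at least 3.1, 1.63 and 2.99 in the same lines. Trim14, counted in N154S and hSTING, was higher by at least 1.01 and 1.45, and Trim30a, counted in the same lines, by at least 0.68 and 0.15. Trim25 was counted in N154S and hSTING but read 0.90 above vector in R284S. Trim26 entered in N154S cells, 1.06 above vector, just inside the limit. None was 2-fold lower in N154S, R284S or hSTING with dsDNA (0 of 64 each), where all genes gave 0.884%, 0.848% and 0.721%.

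**Figure D3:**
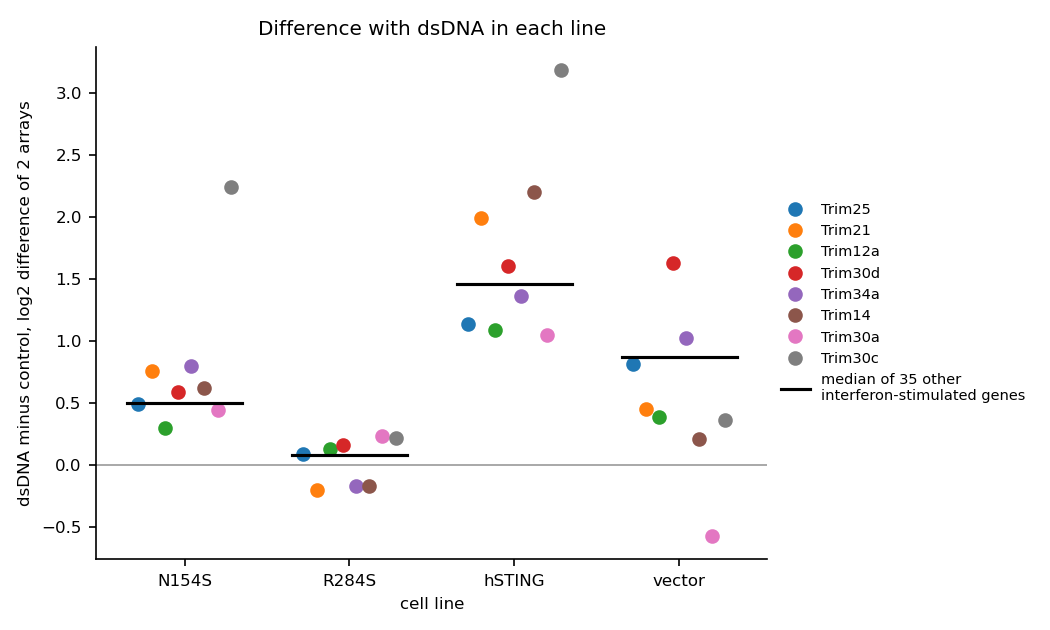
Log2 difference of dsDNA minus control in each line for the 7 pattern members and Trim30c, with a black bar at the median of the 35 panel genes. In hSTING cells the pattern members lie between 1.05 and 2.20 and Trim30c at 3.18, where the differences of Trim30c, Trim14 and Trim30a are taken from dim control arrays, while in R284S cells all 8 lie below 1.

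Within a line, dsDNA arrays were compared with control arrays, and hSTING cells gave the highest TRIM count. There 8 members were 2-fold or more higher with dsDNA than in control cells, against 2.01% of all genes. These were the 7 pattern members and Trim30c. In N154S cells Trim30c alone was (2.24 measured, at least 0.73 against the median), 1 member against 0.379%. In R284S cells 0 were, against 0.0271%. In vector cells Trim34a alone was, from a dim control array and without a bound, 1 member against 0.149%. With dsDNA 0 members were 2-fold lower in any line, where 0.108% of all genes were lower in N154S, 0.0406% in R284S, 0.5% in hSTING and 0.0361% in vector cells.

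In hSTING cells Trim21 was higher with dsDNA by 1.99, Trim30d by 1.60, Trim34a by 1.36, Trim25 by 1.14 and Trim12a by 1.09. The control arrays of the other 3 were dim, so their measured differences of 3.18 for Trim30c, 2.20 for Trim14 and 1.05 for Trim30a amount to at least 1.06, 1.42 and 0.12 against the median and were not ranked. In N154S cells the differences of Trim21, Trim25 and Trim12a were 0.76, 0.49 and 0.30. In R284S cells they were -0.20, 0.09 and 0.13. Ifnb1, the interferon beta gene, read 4.95 in N154S, 3.04 in R284S, 8.80 in hSTING and 3.18 in vector cells with dsDNA, against 2.82, 4.06, 3.21 and 3.18 in their controls.

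Vector cells also gained some signal with dsDNA. Trim30d was 1.63 higher but stayed dim, and Trim25 was 0.81 higher. Trim34a was 1.02 higher as measured, from a dim control array (3.41) to a dsDNA signal of 4.43 at the median of 4.42. That signal lay below the control array's median of 4.45, so no bound is given and no size is read. The panel median moved by 0.50 in N154S, 0.08 in R284S, 1.46 in hSTING and 0.87 in vector cells, and the TRIM median by 0.04, -0.03, 0.025 and 0.03. Averaged over the 4 lines, limma with Benjamini-Hochberg adjustment called 0 of 64 members for dsDNA, with a smallest adjusted p of 0.448 for Trim12a, and called 0.0% of all genes. At an unadjusted limma p under 0.05 there were 11 of 64 members, 8 of them higher, where the share of all genes in either direction was 10.8%. The difference between the dsDNA effect in the STING lines and in vector cells was called for 0 members as well, with 0.0% of all genes called. At an unadjusted limma p under 0.05 it held 2 of 64 members, where the share of all genes was 3.6%.

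**Figure D4:**
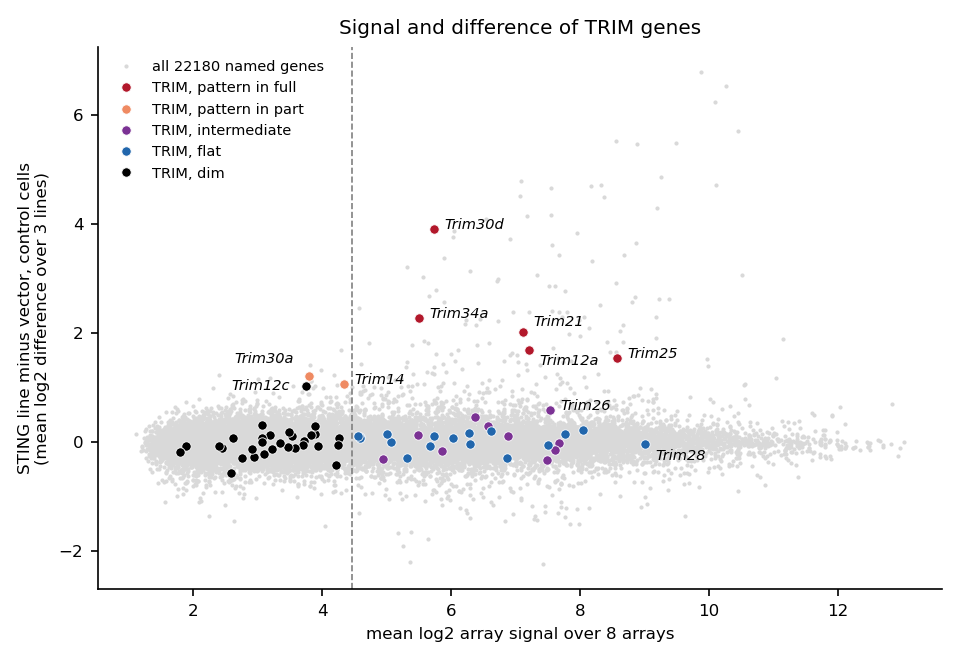
Difference of control cells from vector control cells (mean log2 difference over the 3 STING lines) against mean log2 signal over the 8 arrays, with the 64 members coloured by class and all named genes in grey. The dashed line marks the median of the gene means, 4.454. Among the members the pattern members lie highest, with Trim30d at 3.91 as measured against a dim vector array. The pattern was defined on these same differences, so their high place follows largely from the rule.

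Genes that work with TRIM ligases were set beside the family. Of 13 measured partners, 7 were flat (all genes: 33.2%), among them Mavs, Irf3 and Ube2n, and 3 were intermediate (15.4%), namely Tbk1, Traf6 and Rnf135. Ikbke was in part (1.08%) and 2 were in full (0.374%). Those in full were Ube2l6, the conjugating enzyme for ISG15, and Zc3hav1, an antiviral RNA-binding protein that works with Trim25. In the fit, Ube2l6 was 2.83 higher in N154S than in vector cells (limma adjusted p = 0.00895) and Zc3hav1 1.36 higher (limma adjusted p = 0.0286). Of 4 TRIM proteins without a TRIM symbol, Pml, the organiser of nuclear bodies, was in part and was 1.26 higher in N154S than in vector cells (SE 0.22, limma adjusted p = 0.0490). Mid1 and Mid2 were intermediate and Mefv was dim.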

How the data were processed

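The authors deposited log2 values, 1 per probe set and array. Per the labels' protocols, biotin-labelled cDNA was made from 300 ng of total RNA with GeneChip reagents. The submitters' processing notes name Expression Console 1.3.1.187. Summarisation, background correction, normalisation and the array's build were not given in the sources used here. Arrays correlated at 0.973 to 0.989, and their sorted values differed by at most 0.25.

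Of 41345 probe sets, the 23521 with 1 symbol in the platform annotation were used. The 1814 with several symbols, 7 of them with a TRIM symbol, and the 16010 not listed were left out. All 64 members matched RefSeq (GRCm38.p6) by Entrez identifier. Differences of 2 arrays had no test and counted as 2-fold at a log2 size of 1 where the brighter array reached its own median of the named genes. A fold is a lower bound ("at least") where the dimmer array lay below that median, which then took its place. The fit used limma 3.58.1 (lmFit, eBayes) in R 4.3.3 on the log2 values of all 22180 genes, with Benjamini-Hochberg adjustment and a threshold of 0.05. It had 3 residual degrees of freedom, was tested on simulated data, and had a second form with an interaction for the dsDNA effect. The p-values measure the spread between these arrays, which the labels do not tie to separate cultures. Alternatives were another variance model, a brightness filter, quantile or median scaling, the mean of a gene's probe sets, other fold and flat limits, and leaving out a line.

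Any member could be named. Full values are given for pattern members, limma calls, the 6 brightest flat members and members near the 2-fold limit, and Trim30c, Trim12c, Trim56, Trim32 and Trim7 were added after their values were seen. The members and lists were chosen with earlier results of these data known. The number of arrays limits the precision.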

Additional observations from a re-analysis of the deposited data

Results flagged for a closer look

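Probe sets shared by more than 1 TRIM symbol were in no comparison above. The one assigned to both Trim34b and Trim34a was 1.06 higher in N154S than in vector control cells on the log2 scale, and 1.52 higher in hSTING than in vector cells with dsDNA. The brighter one assigned to both Trim12c and Trim5 was higher with dsDNA than in vector cells with dsDNA by 1.38 in N154S, 1.51 in R284S and 1.37 in hSTING. All these differences were taken from dim vector arrays, so they are not read as sizes. Vector cells read 4.13 (control) and 3.98 (dsDNA) for Trim34b and Trim34a, and 3.49 (dsDNA) for Trim12c and Trim5. Which gene of each pair gave the signal cannot be told apart.

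Trim30a moved with dsDNA in opposite directions. It was 0.44 higher in N154S, 0.23 higher in R284S and 1.05 higher in hSTING cells, but -0.57 in vector cells, where both arrays were dim. The fitted difference between the STING lines and vector cells was 1.14 (limma adjusted p = 0.994), so it was not called. Trim63, a muscle ligase that was dim here, likewise read 0.23, 0.11 and 0.01 in these lines and -0.52 in vector cells, on arrays near or below the median. For Trim63 this difference had no call in the same limma fit.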

How the results depend on the processing

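The limma fit already sets dsDNA against control within each line, since line is one of its terms, and the labels carry no replicate numbers by which arrays could be paired further. Each value rests on single arrays, so line, culture and array cannot be told apart, and dim signals limit the folds to bounds. Of 102 recomputed counts, 85 stayed within 1.5 times and 17 moved. These counts carry no direction. Direction was followed only for the 7 pattern members and Trim26, where no fitted difference and no called difference of 2 arrays was reversed. With a 1.5-fold limit, the dsDNA counts became 5 in N154S, 1 in R284S and 2 in vector cells. Without the brightness requirement, the vector dsDNA count became 2, control R284S against hSTING 1, control R284S against N154S 2 and the flat members 36, since dim members then count. The member added to R284S against N154S was Trim30c, 1.36 higher in R284S, the opposite direction to Trim30d (-1.04). With the mean of a gene's probe sets the vector dsDNA count was 0. In the limma fit, R284S against vector gave 7 calls with trended robust variances, 5 after the filter on dim genes, and 0 to 6 with a line left out (0 without N154S, 6 without hSTING). For hSTING against vector, where Trim30d was the call, it gave 0 with trended robust variances and 0 to 2 with a line left out (0 without N154S, 2 without R284S), and for N154S against vector 6 to 9. Trim16 was in the R284S calls with trended robust variances and with the dim filter, and in the N154S calls with trended robust variances. It read below vector, at -0.5 in R284S and -0.35 in N154S control cells, and at -0.62 and -0.68 with dsDNA. R284S against hSTING gave 1 call, Trim7, with trended robust variances and with the dim filter. Trim21 in N154S lost its call with trended robust variances (limma adjusted p = 0.124). The pattern held 8 members at 1.5-fold (adding Trim26), 9 without the brightness requirement (adding Trim12c and Trim30c) and 6 with the mean of probe sets (without Trim34a).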
